A study of Mus musculus with 32 samples.

Results

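The effect of targeting Pparg was measured in macrophages that were grown with IL-4 and received only vehicle. Of the 32 arrays of the series, 8 hold such cells: 4 from PPARg +/-LysCre mice (mice 1, 2, 3 and 4) and 4 from PPARg fl/-LysCre mice (mice 5, 6, 7 and 8). They were chosen as the arrays labelled IL-4 macrophage with the treatment Control. All mice were C57Bl/6, carried the lysozyme-Cre transgene and carried 1 null Pparg allele. The other allele was intact in the +/- mice and flanked by loxP sites in the fl/- mice, so that Cre, which the lysozyme promoter drives in myeloid cells, can remove it. Bone marrow cells were cultured for 9 days with M-CSF and IL-4, each at 20 ng/ml, and the vehicle was DMSO:ethanol. The same mice gave macrophages treated with 1 μM rosiglitazone (RSG), an agonist of PPARγ, and immature DCs (iDCs), which are used here only for comparison. The comparison therefore sets cells in which the only intact allele is targeted for removal against cells that keep 1 copy, never against cells with 2 copies, and it asks what the receptor does when no agonist is added. PPARg is the spelling of the labels for the gene Pparg. The labels give no ages.

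PPARγ is a nuclear receptor that pairs with RXR and binds direct repeats of the hexamer AGGTCA with a single base between them. It drives lipid uptake and storage in fat cells and is made in quantity by macrophages that IL-4 has turned towards the alternative state. IL-4 acts on these cells through the transcription factor STAT6. Without ligand, PPARγ can also hold corepressors at its sites, so both a fall and a rise of genes after its loss are known in other cells.

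Probes carry identifiers of transcripts or gene models, and only 325 of the 33012 noncontrol probes (0.984%) could be given a gene symbol. The probe of Pparg is not among them, and neither is any of the 12 macrophage markers that were listed, so neither the genotype nor the cell type label was checked against the gene that defines it. Detection means a signal-to-noise ratio (S/N) of 3 or more. Tests were run on the 16620 probes that reached it on 3 or 4 of the 4 arrays of any group. Levels are log2 signals, quantile normalized over all 32 arrays, and differences are fl/- minus +/-, so that a difference of 1 is a doubling. Detected probes numbered 15144 to 15918 in the +/- mice and 15293 to 16009 in the fl/- mice (exact two-sided permutation test, p = 0.429; 4 against 4 cannot go below 0.0286). The precision of every value is limited by the 4 arrays per group. Each mouse gave 1 array, so the spread is that between mice.

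Of the 24 genes with a symbol that are described further on as higher or lower in the fl/- mice, 19 have promoter windows in the RefSeq table (GRCm38.p6, 250 bases before to 50 after a start). Windows of 5 are shown because these genes had some of the clearest differences or held the receptor's hexamer. Capitals mark AGGTCA or its complement TGACCT. The windows are chr14:43819590-43819889 for Ear1 (minus strand), chr11:55461159-55461458 for Atox1 (minus strand), chr4:124700449-124700748 for Fhl3 (plus strand), chr17:35438905-35439204 for H2-Q7 (plus strand) and chr11:32283422-32283721 for Hba-a1 (plus strand), each printed 5′ to 3′ in the direction of the gene.
Ear1: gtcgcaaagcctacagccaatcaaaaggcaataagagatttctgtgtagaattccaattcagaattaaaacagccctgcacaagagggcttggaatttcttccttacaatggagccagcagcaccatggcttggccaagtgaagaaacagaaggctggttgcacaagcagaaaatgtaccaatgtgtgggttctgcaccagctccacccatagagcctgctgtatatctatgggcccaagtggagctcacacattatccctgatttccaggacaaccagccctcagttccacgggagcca
Atox1: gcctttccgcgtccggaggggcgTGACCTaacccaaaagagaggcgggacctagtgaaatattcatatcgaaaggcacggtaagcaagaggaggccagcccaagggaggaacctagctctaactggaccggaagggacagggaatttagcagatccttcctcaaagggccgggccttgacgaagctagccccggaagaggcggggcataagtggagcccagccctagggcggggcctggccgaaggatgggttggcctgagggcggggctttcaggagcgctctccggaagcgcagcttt
Fhl3: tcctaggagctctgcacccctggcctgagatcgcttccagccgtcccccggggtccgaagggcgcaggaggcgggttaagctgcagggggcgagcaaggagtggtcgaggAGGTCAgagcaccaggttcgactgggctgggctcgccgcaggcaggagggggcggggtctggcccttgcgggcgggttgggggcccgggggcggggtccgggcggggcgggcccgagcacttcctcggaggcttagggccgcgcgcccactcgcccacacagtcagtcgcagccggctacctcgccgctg
H2-Q7: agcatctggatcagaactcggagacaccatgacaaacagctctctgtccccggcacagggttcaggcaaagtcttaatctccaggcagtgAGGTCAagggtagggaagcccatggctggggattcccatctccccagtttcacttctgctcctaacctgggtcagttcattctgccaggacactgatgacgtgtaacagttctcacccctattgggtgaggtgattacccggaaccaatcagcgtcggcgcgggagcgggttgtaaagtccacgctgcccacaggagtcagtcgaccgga
Hba-a1: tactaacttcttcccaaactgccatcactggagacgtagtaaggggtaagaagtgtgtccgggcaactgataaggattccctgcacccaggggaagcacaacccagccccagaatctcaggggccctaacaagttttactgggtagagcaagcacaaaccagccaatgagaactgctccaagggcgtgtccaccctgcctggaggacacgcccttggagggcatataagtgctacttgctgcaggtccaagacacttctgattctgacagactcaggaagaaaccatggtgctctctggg

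The hexamer AGGTCA, sought on both strands, was found in the windows of 3 of the 19 genes, Atox1, Fhl3 and H2-Q7, and in 16.3% of all 32851 windows. It began 227 bases before the start of Atox1 (on the opposite strand), 140 before that of Fhl3 and 160 before that of H2-Q7. The full direct repeat AGGTCANAGGTCA, which contains the hexamer 2 times, was in no window of the 19 genes and in 13 of all windows (0.0396%). The STAT6 site TTCNNNNGAA was likewise in no window of the 19 genes and in 6.95% of all windows. These matches describe letters within 300 bases and do not show binding.

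Mouse 5 stood apart from the other fl/- mice, and the counts and the named genes are therefore given with and without it. Leaving it out was prompted by earlier results of these data. Over the 16620 tested probes its mean Pearson r was 0.974 with the 4 +/- arrays and 0.956 with the 3 other fl/- arrays. Mice 6, 7 and 8 were the other way round, at 0.960, 0.951 and 0.956 with the +/- arrays and 0.969, 0.964 and 0.971 with the other fl/- arrays. The median SD per probe was 0.21 in the +/- mice, 0.286 in the fl/- mice and 0.194 in the fl/- mice without mouse 5. Scan day is the name given here to a code in the headers of the array data. It was shared by mice 1 and 2, by mice 3 and 4, by mice 5 and 6, and by mice 7 and 8. Each day thus held 1 genotype only, so a genotype difference cannot be told apart from a difference between days.

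With all 8 arrays, 26 probes were called between the genotypes (0.156% of 16620), of which 9 were higher in the fl/- mice (0.0542%) and 17 lower (0.102%). Calling a probe took both a 1.5-fold difference and, in limma with Benjamini-Hochberg adjustment, a p below 0.05, and 3891 probes had an unadjusted p under 0.05. None of the 26 has a gene symbol. The adjusted p of the 26 lay between 0.034 and 0.0493, close to the threshold. The groups did not overlap for any of the 26, which was also true of 12.8% of all tested probes. The count moved both ways with the processing: it was 14 with median scaling and 0 when scan day entered limma as a block (3313 at an unadjusted p under 0.05), but 145 with the filter on the compared groups, 161 with detection on all 4 arrays of a group, 341 with the mouse as a replicate block and 817 in a fit to all 32 arrays. It was 0 to 4 when any mouse other than mouse 5 was left out.

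The deepest falls were in 3 probes that were detected on all 4 +/- arrays and on no fl/- array. mCG1701.2 had log2 signals of 12.03, 12.86, 9.84 and 10.28 in the +/- mice and of 8.15, 8.19, 7.59 and 8.15 in the fl/- mice. mCG7037.3 had 10.81, 10.34, 10.89 and 10.49 in the +/- mice and 7.80, 7.71, 7.23 and 7.41 in the fl/- mice. mCG133020.1 had 9.13, 9.92, 9.67 and 9.30 in the +/- mice and 6.54, 6.73, 7.07 and 6.54 in the fl/- mice. Mouse 5 lay with mice 6, 7 and 8 in all 3 probes, and every fl/- value was below every +/- value. Because the fl/- signals were below detection, the sizes of the falls are not measured. A floored fold is given instead: the mean signal of the detected group over that of the other group. Each array of the latter is set no lower than its dimmest detected probe. The floored fold was 9.38 for mCG1701.2 (adjusted p = 0.0479 from limma) and 8.52 for mCG7037.3 (adjusted p = 0.0382). For mCG133020.1 it was 6.71 (adjusted p = 0.034). Detection of these probes may need a higher signal than that floor, so floored folds are not lower bounds. The +/- mice themselves varied in mCG1701.2, with an SD of 1.43, against 0.26 in mCG7037.3.

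The brightest of the 26 probes was AK003621.1, at 19.25, 19.40, 19.24 and 19.25 in the +/- mice and 18.33, 17.72, 17.68 and 17.88 in the fl/- mice. Its difference was -1.38 (SE 0.19, adjusted p = 0.034 from limma). mCG4048.2 was at 15.81, 16.17, 16.09 and 15.70 in the +/- mice and at 14.54, 14.34, 13.48 and 14.42 in the fl/- mice, a difference of -1.75 (SE 0.29). Both stayed well above detection in all 8 mice, so these falls are measured on either side. The next lower probes by size were mCG116595.1 (-1.40), mCG10639.2 (-1.25), mCG114554.1 (-1.19), mCG114685.1 (-1.17) and mCG18673.2 (-1.03). The remaining 7 lower probes differed by -0.63 to -0.99.

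Among the 9 probes that were higher, mCG1704.1 had the largest of the differences measured in both genotypes, 1.88 (SE 0.31, adjusted p = 0.0391 from limma). Its log2 signals were 16.38, 15.47, 16.26 and 16.10 in the +/- mice and 17.06, 18.02, 18.60 and 18.05 in the fl/- mice. mCG20550.2 followed at 1.71 and mCG22510.3 at 1.61. mCG141783 was detected on no +/- array and on all 4 fl/- arrays, which gives a floored fold of 3.06 and no rank among the measured ones. AF045504.1 was detected on no +/- array and on 3 fl/- arrays. It entered the test only through these fl/- arrays, where it was high. The filter thus favoured its call, and nothing is read from it. The others were mCG6287.1 (1.48), mCG1026209.1 (1.34) and mCG17531.2 (1.02), and mCG124547, which was detected on 1 +/- array and 3 fl/- arrays, so that its size is not measured. In mCG1704.1 and mCG22510.3 mouse 5 was the lowest of the fl/- mice but still above every +/- mouse, whereas in mCG1026209.1 it was the highest at 13.36.

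**Figure D1:**
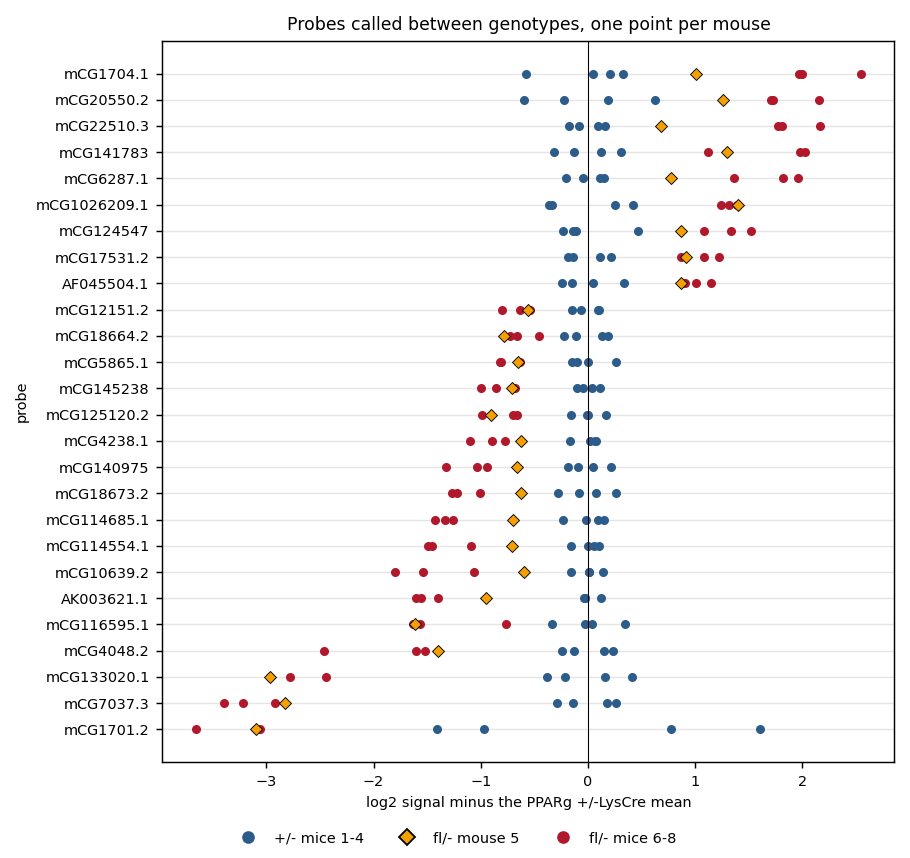
Log2 signal of each of the 26 called probes in each of the 8 mice, minus the mean of the 4 PPARg +/-LysCre mice (x axis; 1 row per probe, ordered by the genotype difference). Blue circles are +/- mice, red circles fl/- mice 6, 7 and 8, and orange diamonds mouse 5; in every row the fl/- points lie on 1 side of the +/- points, with mouse 5 at a median of 75.8% of the way from the +/- mean to the mean of the other fl/- mice.

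Mouse 5 lay with the other fl/- mice for most of the probes called with it, and calling them with it favours this. Its position ran from 35.7% of the way to the mean of mice 6, 7 and 8 (mCG22510.3) to 126% (mCG18664.2), and it was nearer the +/- mean for 4 of the 26. Without it all 26 kept their direction, with adjusted p-values of 5.6e-06 to 0.0041 from limma; mCG1704.1 then differed by 2.17 and AK003621.1 by -1.52.

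Without mouse 5, 2488 probes were called between the 4 +/- mice and the 3 remaining fl/- mice (15.0% of 16620), 1346 higher (8.10%) and 1142 lower (6.87%) in the fl/- mice. They include all 26. This count is not independent of the reason for leaving the mouse out. The groups did not overlap for 2425 of the 2488, and for 35.5% of all tested probes. The differences ran from -3.92 to 4.87 on the log2 scale, with a median of 2.09-fold among the higher and 1.87-fold among the lower probes. Fitted differences of at least 4-fold were found for 150 higher and 123 lower probes, and of at least 8-fold for 27 and 18. These counts include probes below detection in a genotype, such as Hba-a1 and H2-Q8, whose sizes are not measured. Of the 2488, 1910 were detected on all 7 arrays, so most of the differences were measured on either side. By contrast 156 higher probes were detected on no +/- array, and 72 lower probes on none of the 3 fl/- arrays. When the tested probes were split into 4 equal sets by mean level, the share called was 9.99% in the dimmest set and 17.5%, 17.1% and 15.3% in the next ones.

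On these 2488 probes, which were chosen on the other mice, the array of mouse 5 lay at a median of 8.08% of the way from the +/- mean to the mean of mice 6, 7 and 8. It was nearer the +/- mean for 2154 probes (86.6%). Over all 16620 tested probes the share was 65.2%, against 36.4%, 31.9% and 29.2% for mice 6, 7 and 8. On the 2488 probes its RSG-treated macrophages were nearer the +/- mean of their culture for 2051 (82.4%) and its vehicle-treated iDCs for 1630 (65.5%). In iDCs it lay within the range of the +/- mice for 1157 of them and within that of the other fl/- mice for 859. Over all tested probes the share was 62.4% for mouse 5 in RSG-treated macrophages, against 31.8%, 28.8% and 31.9% for mice 6, 7 and 8. In iDCs it was 59.6%, against 36.5%, 35.9% and 37.2%. Leaving out a second mouse kept the count between 2027 and 2451, and leaving out any other mouse while keeping mouse 5 gave 0 to 4.

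**Figure D2:**
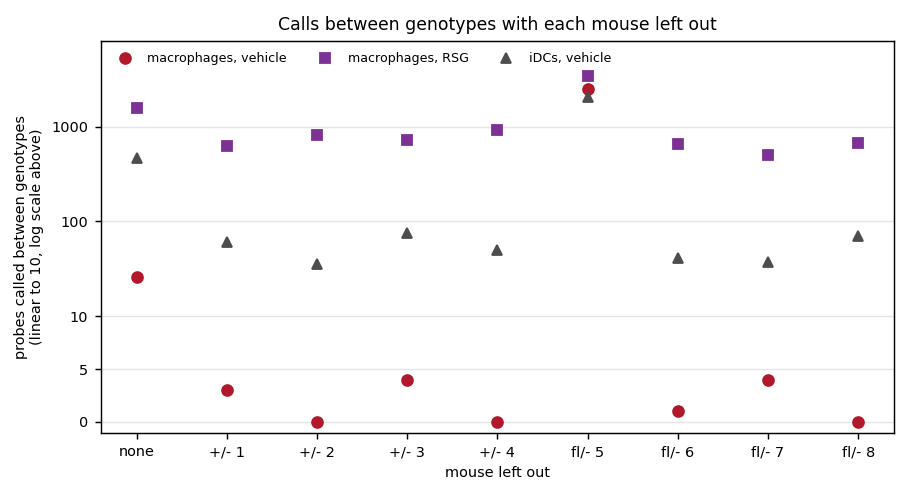
Number of probes called between genotypes (y axis, linear to 10 and logarithmic above) with no mouse or with 1 of the 8 mice left out (x axis), in vehicle-treated macrophages (circles), RSG-treated macrophages (squares) and vehicle-treated iDCs (triangles). The count in vehicle-treated macrophages goes from 26 to 2488 without mouse 5 and to at most 4 without any other mouse.

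Of the 167 tested probes with a gene symbol, 24 were called without mouse 5 (14.4%, against 15.0% of all tested), 12 higher and 12 lower. With all 8 mice none of the 167 was called by limma or by the methods' t-test with Benjamini-Hochberg adjustment, and 32 had an unadjusted p under 0.05 in limma (19.2%, against 23.4% of all tested). The adjusted p of the 24 then lay between 0.0593 and 0.336. In the account of these genes that follows, differences, errors and adjusted p-values come from the limma fit without mouse 5 unless the value with all 8 mice is named, and a rise or fall means a call in the fit without it. Mouse 5 was nearer the +/- mean for 21 of the 24.

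Ear1 and Sfrp4, which encode secreted proteins, had the largest fitted falls among the named genes. Ear1, a ribonuclease of the eosinophil-associated family, had log2 signals of 17.65, 17.37, 17.66 and 17.47 in the +/- mice and of 17.20, 14.64, 14.59 and 15.24 in fl/- mice 5, 6, 7 and 8. Mice 6, 7 and 8 were far below every +/- mouse, and mouse 5 was just below the lowest of them. The difference was -2.71 (SE 0.28, adjusted p = 6.07e-05), and -2.12 with all 8 mice (adjusted p = 0.0671). The Ear genes are near-identical and the probe sequence was not used here, so the value may hold transcripts of more than 1 of them. Sfrp4, a secreted antagonist of Wnt signalling, was at 12.55, 11.64, 10.08 and 10.60 in the +/- mice and at 6.02, 9.48, 8.81 and 6.63 in the fl/- mice. Here mouse 5 was the lowest of all. Sfrp4 was detected on all 4 +/- arrays and on 1 fl/- array, which was not that of mouse 5. In the whole series it was detected on 7 of 32 arrays. It entered the test only through these +/- arrays, where it was high, which favours its call. Its fitted difference was -2.91 (SE 0.70, adjusted p = 0.0101), or -3.48 with all 8 mice (adjusted p = 0.0593), and since most of its fl/- values are below detection the size is not measured.

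Crip1 and Atox1 were the brightest of the named genes that fell. Crip1, a LIM-domain protein, was at 19.11, 18.85, 18.74 and 19.08 in the +/- mice and at 19.02, 17.58, 17.58 and 17.73 in fl/- mice 5, 6, 7 and 8. Atox1, the chaperone that hands copper to transport ATPases, was at 18.94, 19.10, 19.07 and 18.86 in the +/- mice and at 18.99, 17.90, 17.77 and 17.95 in the fl/- mice. In both genes mouse 5 was within the range of the +/- mice, and mice 6, 7 and 8 lay well below the lowest +/- mouse. The differences were -1.31 for Crip1 (SE 0.12, adjusted p = 2.46e-05) and -1.12 for Atox1 (SE 0.09, adjusted p = 1.7e-05). Mt3, a metallothionein, fell by 0.78 (SE 0.24, adjusted p = 0.036). Fhl3, the other LIM-domain protein, was dim: it was detected on 2 of 4 +/- arrays and on none of mice 6, 7 and 8. It was called as lower (adjusted p = 0.0049) with no measured fold, while mouse 5, at 9.20, was higher than every +/- mouse.

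Coa3, an assembly factor of cytochrome c oxidase in mitochondria, was at 16.24, 16.20, 16.30 and 16.10 in the +/- mice and at 16.30, 14.53, 15.38 and 15.39 in the fl/- mice, a difference of -1.11 (SE 0.18, adjusted p = 9.18e-04). Acyp2, an acylphosphatase, was at 13.18, 13.42, 12.89 and 13.15 in the +/- mice and at 12.83, 12.28, 11.97 and 11.75 in the fl/- mice, a difference of -1.16 (SE 0.17, adjusted p = 4.55e-04). All fl/- mice were below all +/- mice for Acyp2, whereas for Coa3 mouse 5 matched the highest +/- mouse. Nt5dc3, a protein with a nucleotidase domain, fell by 1.07, and Trim59, a ubiquitin ligase of the tripartite motif family, by 1.00. Tceal9, of the family of transcription elongation factor A-like proteins, fell by 0.81, and Tbc1d16, an activator of Rab GTPases, by 0.78. Tceal9 and Tbc1d16 are the genes of this set in which the groups stayed apart with mouse 5 included, along with Acyp2, Ear1 and Sfrp4.

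Hba-a1 and H2-Q8 had the largest fitted rises among the named genes. Hba-a1, an alpha-globin gene, was at 7.92, 8.27, 8.13 and 8.22 in the +/- mice, below detection on every array, and at 8.59, 12.43, 12.67 and 12.21 in fl/- mice 5, 6, 7 and 8. H2-Q8, a nonclassical class I gene of the MHC, was at 9.07, 9.31, 9.05 and 9.69 in the +/- mice, again below detection, and at 10.46, 12.55, 13.44 and 13.09 in the fl/- mice. Mice 6, 7 and 8 were detected for both genes and mouse 5 for neither. Without mouse 5 the floored folds were 19.7 for Hba-a1 (adjusted p = 8.34e-07) and 13.4 for H2-Q8 (adjusted p = 4.82e-05). The sizes of these rises are not measured. The fitted log2 differences of 4.30 and 3.75 became 3.34 (adjusted p = 0.0761) and 3.10 (adjusted p = 0.0767) with all 8 mice. Hba-a1 belongs to the 14 erythroid markers that were listed, of which 2 had a named probe, and the other, Eraf, the chaperone of alpha-globin, was detected on none of the 8 arrays and lay at 6.35 to 7.21 and 5.02 to 7.07 in the +/- and fl/- mice. Since probe sequences were not used here, whether the probe of Hba-a1 also reads its near-identical copy Hba-a2 is unknown. The part of erythroid cells in this difference was not tested.

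H2-Q7, another class I gene of the Q region, was far brighter and rose by less. It was at 18.29, 18.16, 18.45 and 18.25 in the +/- mice and at 18.71, 18.86, 19.33 and 19.21 in the fl/- mice, with every fl/- mouse above every +/- mouse. The difference was 0.85 (SE 0.14, adjusted p = 0.00102), and 0.74 with all 8 mice (adjusted p = 0.0672). These 2 probes were the only ones with a symbol among the 25 MHC genes that were listed, so nothing can be said here of the class I and class II genes as a group.

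Paqr3 and Zbtb18 were higher in mice 6, 7 and 8 than in every +/- mouse. Paqr3, a Golgi protein that holds Raf kinases away from the plasma membrane, was at 9.15, 9.96, 9.45 and 9.93 in the +/- mice and at 9.78, 11.40, 11.30 and 10.80 in fl/- mice 5, 6, 7 and 8. Zbtb18, a zinc finger repressor of transcription, was at 14.74, 14.88, 14.67 and 14.98 in the +/- mice and at 14.89, 16.04, 16.08 and 15.77 in the fl/- mice. Mouse 5 was within the +/- range in both. The differences were 1.55 for Paqr3 (SE 0.25, adjusted p = 0.0011) and 1.14 for Zbtb18 (SE 0.16, adjusted p = 3.55e-04).

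Mapk7, a MAP kinase, was at 12.74, 12.53, 12.61 and 12.69 in the +/- mice and at 12.76, 13.24, 13.27 and 13.22 in the fl/- mice, a difference of 0.60 (SE 0.09, adjusted p = 6.05e-04). The difference is small but the spread was smaller still, and mouse 5 was only just above the highest +/- mouse. Ntn1, a secreted guidance protein of the netrin family, rose by 0.77, Tspyl2, of a family of nucleosome assembly proteins, by 0.67, Rnaset2b, a lysosomal ribonuclease, by 0.65 and Glce, an epimerase of heparan sulfate synthesis, by 0.63. Olfr920, an olfactory receptor gene, and Csprs, which lies in a repeated gene cluster, were detected on no +/- array. Olfr920 was detected in mice 6, 7 and 8 (adjusted p = 0.00217) and Csprs on 2 of these 3 arrays (adjusted p = 0.0323), both with no measured fold. For Olfr920 these fl/- arrays, where it was high, were enough to pass the detection filter. That may favour its call, and nothing is read from it. For Csprs mouse 8, at 7.50, was within the range of the +/- mice, so the groups overlapped.

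**Figure D3:**
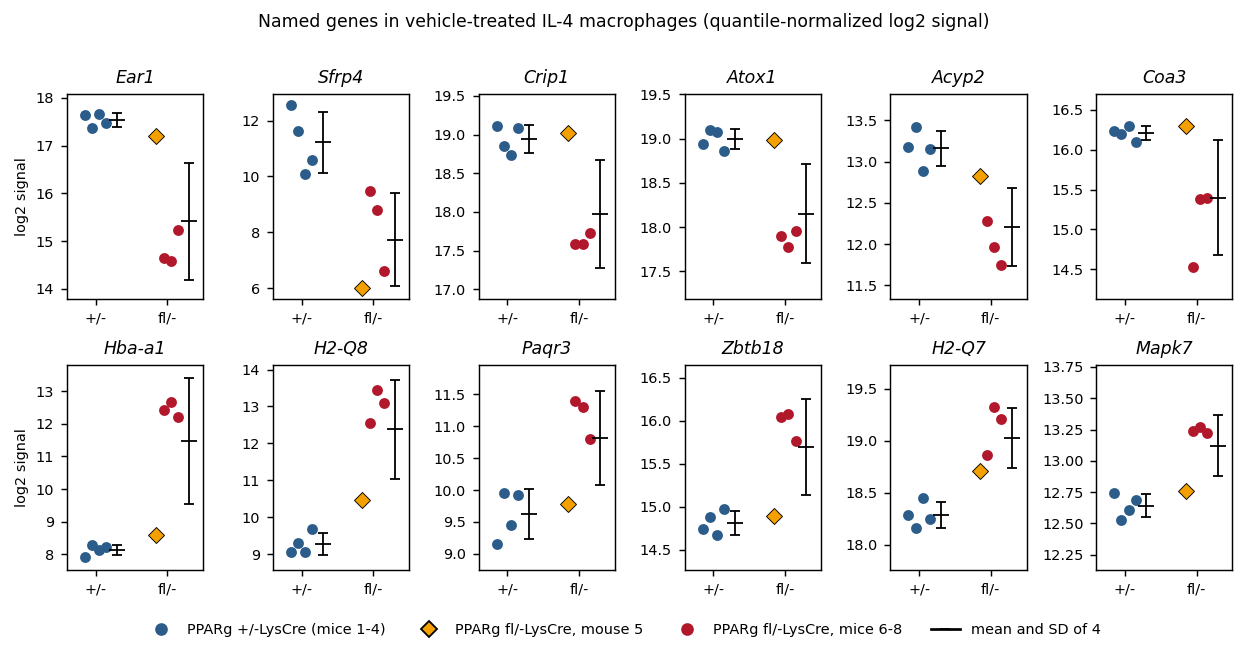
Log2 signal of 12 named genes in the 4 PPARg +/-LysCre mice (blue) and the 4 PPARg fl/-LysCre mice (mouse 5 as an orange diamond, mice 6, 7 and 8 in red), each panel with its own axis, which does not start at 0; black bars give the mean and SD of the 4 mice. Mouse 5 lies beside the +/- mice in most panels and below all others for Sfrp4.

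The pathways in which PPARγ is known could be read through few probes. Of 13 pathway lists and 9 cell type marker lists, 6 had any tested probe with a symbol, and 8 listed genes had one. Among the receptor, its partners and coregulators, only Cebpb, a transcription factor of the C/EBP family, had probes. Its bright probe had means of 19.35 in the +/- mice and 19.32 in the fl/- mice, and its dimmer probe 14.60 and 14.88. Neither was called, with or without mouse 5, although without it the dimmer probe differed by 0.43 with an adjusted p of 0.0105 from limma, below the 1.5-fold threshold. Of the listed inflammatory genes only Nlrp3, the sensor of the inflammasome, had a probe, which was detected on 1 of the 8 arrays. Of the listed lysosomal genes, which do not include Rnaset2b, only Epdr1 had one, with means of 9.75 and 9.92, and it was not called either. The lists of PPARγ target genes, alternative activation by IL-4, fatty acid oxidation, cholesterol efflux, cholesterol synthesis, interferon response, scavenger receptors, oxidative stress and cell cycle had no probe with a symbol, and their genes were not analysed here. Among the marker lists, eosinophils had only Ear1 (1 of 9) and erythroid cells only Hba-a1 and Eraf, and markers of neutrophils, mast cells, B cells, T and NK cells, DCs and fibroblasts had none.

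Other genes described for the series were not called here. 5830415G21Rik differed by -0.61 with all 8 mice (adjusted p = 0.23 from limma) and by -0.78 without mouse 5 (adjusted p = 0.0521). Gask1b (1110032E23Rik) was at 13.49, 13.58, 13.50 and 13.54 in the +/- mice and at 13.51, 12.99, 13.43 and 13.03 in the fl/- mice. Sgms2, a sphingomyelin synthase, Tnfsf13, the B cell survival cytokine APRIL, and Ramp3, a subunit of adrenomedullin receptors, had differences of 0.02, -0.04 and 0.39. Lhx2, a homeobox factor, was detected on none of the 8 arrays.

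Some probes crossed the detection limit between genotypes. On all noncontrol probes, 92 were detected on all 4 fl/- arrays and at most 1 +/- array, and 85 on all 4 +/- arrays and at most 1 fl/- array, together 0.536% of 33012. Sfrp4 was the 1 gene with a symbol among them. Of the 177 probes, which were picked for a difference between the genotypes, 4 were called with all 8 mice (0.156% of all tested were) and 77 without mouse 5 (43.5%, against 15.0% of all tested), and nothing is read from these shares. Without mouse 5, 331 probes were detected on the arrays of mice 6, 7 and 8 and on at most 1 +/- array, and mouse 5 was itself below detection for 239 of them. The reverse held for 186 probes, of which mouse 5 was detected for 138. Both directions together gave 517 without mouse 5 and 301 to 339 without any other mouse. Fewer arrays are required once a mouse is left out, so the count rises for every mouse.

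The same mice allow the genotype difference to be set beside that in RSG-treated macrophages, a comparison with its own arrays. There 1550 probes were called with all 8 mice (9.33%; 5.11% higher and 4.22% lower in the fl/- mice) and 3385 without mouse 5 (20.4%; 10.8% higher and 9.58% lower). The count was 504 to 925 when any other mouse was left out. Of the 26 probes called with vehicle, 22 were called with RSG and 25 had the same sign (23 and 25 without mouse 5), but the cells come from the same mice and the values are not independent. The share of all tested probes with the same sign was not counted, so nothing is read from the sign counts. mCG7037.3 had means of 10.63 with vehicle and 13.02 with RSG in the +/- mice, and its mean in the fl/- mice was below detection with vehicle and 9.15 with RSG, where 3 of 4 arrays detected it. With vehicle the floored fold was 8.52, with no measured size, and the fitted difference with RSG was -3.87. Sfrp4 was detected on no +/- array and on 1 fl/- array with RSG, so no genotype difference could be measured there. With all 8 mice Ear1 differed by -3.11 with RSG (adjusted p = 0.00346) and by -2.12 with vehicle (adjusted p = 0.0671), and without mouse 5 by -3.45 and -2.71, both called. The test of RSG minus vehicle did not call it in either fit (-0.99 and -0.74, adjusted p = 1 in limma for both).

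The test of the difference itself, the genotype difference with RSG minus that with vehicle, called 1 probe with all 8 mice (0.00602%) and 10 without mouse 5 (0.0602%). The probe was mCG18625, which was named after its values were seen: its genotype difference was -0.05 with vehicle and -1.21 with RSG (adjusted p of the change 0.00619 from limma). With the mouse as a replicate block, since both treatments come from the same mice, it called 23 (13 higher and 10 lower). None of the 26 probes passed this test with all 8 mice. An unadjusted p under 0.05 in limma was found for 7 of them and for 574 of all 16620 tested. The 26 were chosen on the same vehicle arrays, which affects their values in this test, and nothing is read from these counts. Without mouse 5, 1 of them passed, mCG17531.2, with a change of 1.5 on the log2 scale (SE 0.18, adjusted p = 0.0143). Sfrp4 did not pass it (adjusted p = 0.983).

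In vehicle-treated iDCs 471 probes were called between the genotypes with all 8 mice (2.83%; 1.28% higher and 1.55% lower in the fl/- mice) and 2029 without mouse 5 (12.2%; 6.91% higher and 5.29% lower), but 36 to 76 when any other mouse was left out. None of the 26 macrophage probes was among the 471 by limma, and 18 had the same sign. An unadjusted p under 0.05 was found for 4 of the 26 and for 3771 of all 16620 tested. Without mouse 5, 3 of the 26 were called in iDCs, all lower as in macrophages, and again 18 had the same sign. The 3 were mCG114554.1 (-1.93, adjusted p = 0.00559 from limma), mCG4048.2 (-1.28, adjusted p = 0.00537) and mCG18673.2 (-0.75, adjusted p = 0.013). Here too the share of all tested probes with the same sign was not counted, and nothing is read from the sign counts. The genotype difference in macrophages minus that in iDCs was called for 888 probes with all 8 mice (5.34%) and for 2556 without mouse 5 (15.4%), and for 231 to 327 when any other mouse was left out. With the mouse as a replicate block the count with all 8 mice was 1453. Of the 26 probes 13 passed this test with all 8 mice and 13 without mouse 5, and of the 24 named genes 3 did with all 8 mice (Sfrp4, Paqr3 and Zbtb18) and 14 without mouse 5. Both sets were chosen for a genotype difference on the same macrophage arrays, which favours passing, and nothing is read from these counts. Sfrp4 was below detection on every vehicle-treated iDC array of both genotypes. It entered the test only through the +/- vehicle-treated macrophages, where it was high. With all 8 mice the difference for Paqr3 was 1.20 in macrophages and -0.56 in iDCs, and for Zbtb18 0.88 and -0.16, none of the 4 called on its own. Without mouse 5 these were 1.55 and -0.60 for Paqr3 and 1.14 and -0.20 for Zbtb18.

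**Figure D4:**
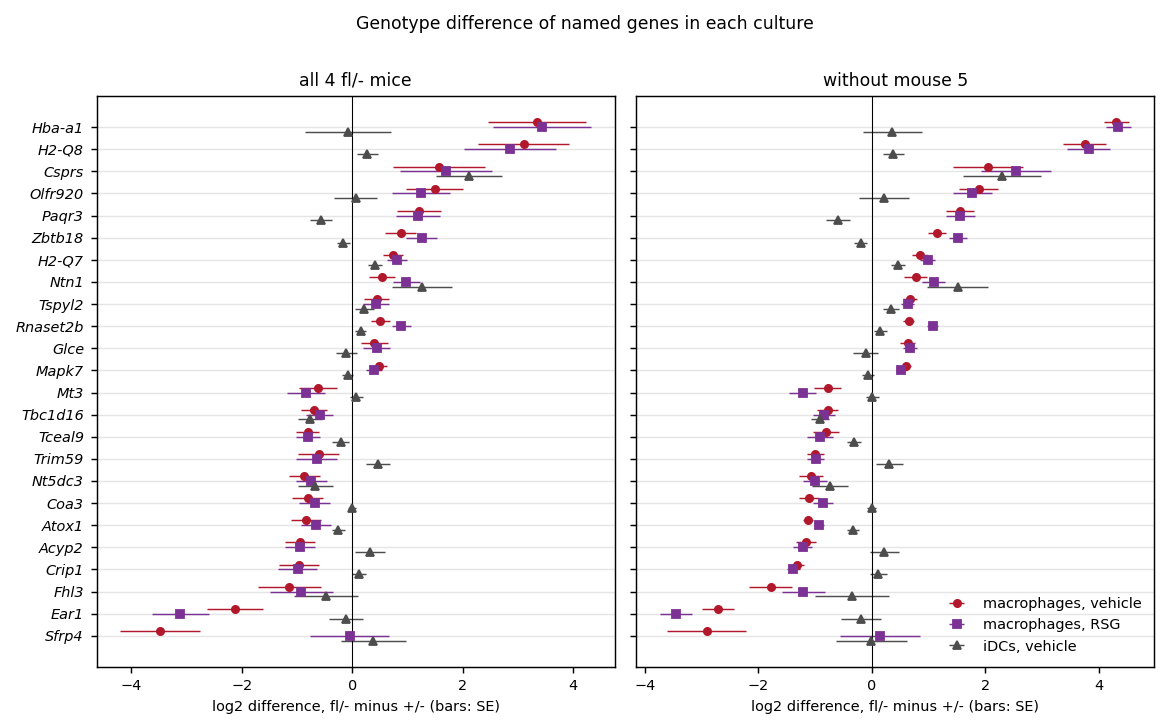
Genotype difference (fl/- minus +/-, log2; bars are the SE from limma) of the 24 named genes called without mouse 5, in vehicle-treated macrophages (circles), RSG-treated macrophages (squares) and vehicle-treated iDCs (triangles), with all 4 fl/- mice (left) and without mouse 5 (right). Points of genes below detection in a genotype, such as Hba-a1 and H2-Q8 in +/- macrophages, are fitted values and not measured sizes; Paqr3 is at 1.20 and 1.19 in the macrophages and at -0.56 in iDCs.

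Levels in +/- iDCs are set beside those in macrophages for 9 of the named genes, chosen after their values were seen. Over all 24 named genes, the mean of mice 6, 7 and 8 was nearer the +/- iDC mean than the +/- macrophage mean was for 15 (62.5%) and not for 9, against 58.5% of the 2488 called probes and 55.4% of all tested. These genes were chosen for a difference of the same mice from the same +/- macrophage mean, some of the levels are below detection, and nothing is read from the share. H2-Q8 had a mean of 9.28 in +/- macrophages, 13.03 in the macrophages of mice 6, 7 and 8, and 15.46 in +/- iDCs. Zbtb18 had 14.82, 15.96 and 15.93 in the same order, and Paqr3 9.62, 11.17 and 11.46. Among the genes that fell, Ear1 had 17.54, 14.82 and 14.98, Crip1 18.95, 17.63 and 17.03, and Acyp2 13.16, 12.00 and 10.38. Coa3 had 16.21, 15.10 and 15.87, and Glce 12.20, 12.83 and 12.43, where the macrophages of mice 6, 7 and 8 lay beyond the iDCs. Hba-a1 was at 8.14, 12.44 and 9.99, with the macrophages of mice 6, 7 and 8 above the iDCs. These are levels side by side in cultures that share mice, with no test of the order.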

How the data were processed

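Total RNA of 8 mice was transcribed into digoxigenin-labeled cRNA and read on 32 single-color Applied Biosystems chemiluminescence arrays. The authors deposited for each array a signal intensity per probe with its standard deviation, on a linear scale and unscaled between arrays, and the S/N score. At an S/N of 1 or below, 99.87% of deposited signals equal that standard deviation, so they are noise levels. They also deposited a table of ratios (each signal over a number per array and the probe's median over arrays), used as an alternative; 0.074% of its values differed by over 0.01 (log2) from that reading. For its Affymetrix arrays the study states scaling to the median of each chip and then to the median of each gene. For the arrays used here, the statistic behind the number per array is not given in the sources used. The study's methods describe Affymetrix arrays, and the t-test tried as an alternative is the one they state for those.

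Signals were log2 transformed and quantile normalized over all 32 arrays. limma 3.58.1 (R 4.3.3) was fitted to the 16 macrophage arrays with a mean per group (all 32 for the comparison with iDCs, the 16 iDC arrays within iDCs), after a test on simulated data. Probes were tested if S/N was at least 3 on at least 3 of 4 arrays of a group and called where they differed 1.5-fold with a Benjamini-Hochberg adjusted p below 0.05. Control spots were left out. Symbols came from a RefSeq table of GRCm38.p6 (317 probes) and the study's supplementary tables (8). The mice, gene lists and probes named (10 largest called differences each way; called probes with a symbol, at most 15 each way; listed genes) were chosen with earlier results of these data known. Same-numbered arrays come from the same mouse, and their deviations correlated between vehicle and RSG macrophages at a median of 0.298 (0.00953 to 0.623), against -0.059 between mice. The mouse block, scan day, scaling, filters, thresholds, an offset, the set of arrays and each mouse left out were tried as alternatives. Tables and figures used Python 3.11.15, pandas 2.3.3 and matplotlib 3.10.9.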

Additional observations from a re-analysis of the deposited data

Results flagged for a closer look

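In a group of 4 mice, a value was singled out when its gap to the nearest other was above Dixon's critical share of the group's range, which chance gives for about 1 in 20 groups; 12 of 112 groups met this, 6 of them through mouse 5. Of these 6, 5 are genes that were named because they were called without mouse 5, which favours such gaps, so the share cannot be read against chance. In the fl/- mice the gap was 0.851 for Atox1, 0.893 for Crip1 and 0.905 for Trim59, where mouse 5 was highest, and 0.886 for Hba-a1, 0.912 for Mapk7 and 0.908 for the dimmer Cebpb probe, where it was lowest. Mouse 6 was highest for mCG116595.1 (0.924) and for the median signal of the array (0.932), and mouse 7 lowest for mCG1701.2 (0.918). In the +/- mice, mouse 2 was highest for AK003621.1 (0.952) and lowest for Rnaset2b (0.927), and mouse 1 highest for mCG124547 (0.839).

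The genotype difference changed with RSG for 1 probe in macrophages and between vehicle-treated macrophages and iDCs for 888 probes, by a test of the difference in limma. For named probes, the difference in macrophages minus that in iDCs was -3.86 for Sfrp4 (adjusted p = 0.0181), 1.76 for Paqr3 (0.0227), 1.04 for Zbtb18 (0.0431) and 0.92 for the dimmer Cebpb probe (0.0469). It was -3.52 for mCG7037.3, -2.63 for mCG133020.1, -2.57 for mCG1701.2, -2.49 for mCG116595.1, -1.13 for AK003621.1 and -1.09 for mCG114685.1. It was 2.49 for mCG141783, 2.34 for mCG1704.1, 1.60 for mCG22510.3, 1.51 for mCG1026209.1 and 1.33 for mCG124547. The adjusted p of these 11 probes lay between 0.00249 and 0.0406. These are fitted values. Sfrp4, Paqr3, Zbtb18 and the 11 probes were chosen for a genotype difference in the same macrophages, which favours passing. Sfrp4 entered the test only through the +/- vehicle-treated macrophages, where it was high. Sfrp4, mCG7037.3, mCG133020.1, mCG1701.2 and mCG116595.1 were below detection on every +/- iDC array, and mCG7037.3, mCG133020.1 and mCG1701.2 also on every fl/- macrophage array. mCG141783 was below detection on every +/- macrophage array, and mCG124547 was detected on 1 of them, so the sizes of these differences are not measured.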

How the results depend on the processing

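The count of 26 with all 8 mice was 27 with no fold threshold and 18 at 2-fold, and moved by over 1.5 times under every other choice tried. It became 14 (7 higher and 7 lower) with median scaling and 14 (7 and 7) in the authors' ratios, 0 with no detection filter (4169 at an unadjusted p under 0.05), 161 with detection on all 4 arrays of a group, 145 with the filter on the compared groups (all 26 among them), 45 with the offset, 3 with the compared arrays only and 817 with all 32 arrays. The methods' t-test gave 1528 without and 4 with Benjamini-Hochberg adjustment. With the mouse as a replicate block, which pairs arrays across treatments since the genotypes share no mouse, 341 were called, and all 26 were among them. With scan day entered as a block 0 were called (3313 at an unadjusted p under 0.05). Leaving out each mouse gave 0 to 2488: 3, 0, 4 and 0 without +/- mice 1, 2, 3 and 4, and 2488, 1, 4 and 0 without fl/- mice 5, 6, 7 and 8 (2961, 3154 and 2638 at an unadjusted p under 0.05 without mice 2, 4 and 8). The cause was not tested.

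Without mouse 5, 2488 became 3985 with no fold threshold and 1226 at 2-fold, and lay between 2027 and 2566 under the other settings, all added after seeing the data. Median scaling gave 2563, of which 2271 were among the 2488.

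For the change of the genotype difference with RSG, 1 became 0 with median scaling, 0 in the authors' ratios and 0 with no filter (463, 462 and 1305 at an unadjusted p under 0.05), 2 with all 32 arrays and 23 with the mouse as a replicate block, and 0 to 10 with a mouse left out. For macrophages against iDCs, 888 became 537 at 2-fold, 533 with median scaling (389 and 144, against 553 and 335), 535 in the authors' ratios (390 and 145), 355 with no filter, 1453 with the mouse as a replicate block, and 231 to 2556 with a mouse left out. With a mouse left out, genotype called 504 to 3385 probes in macrophages given RSG; in iDCs it called 36 to 2029. The upper values are those without mouse 5. The 177 probes that crossed detection became 38 when none of the other genotype was allowed, and 301 to 517 with a mouse left out, where at most 1 array of 3 or 4 was allowed. The difference in detected probes per array (186.5) was 60.8 to 324.8, and that in median signal (32.6) 4.2 to 49.5.

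Of 54 named probes, none turned sign under another scaling, filter, set of arrays or block. With a mouse left out, values near 0 turned sign: Cebpb's bright probe (-0.03) ran from -0.10 to 0.02, Epdr1 (0.17) from -0.03 to 0.42, Lhx2 (0.25) from -0.16 to 0.45, Sgms2 (0.02) from -0.19 to 0.34 and Tnfsf13 (-0.04) from -0.13 to 0.02.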
